A study of Mus musculus with 7 samples.

Results

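The 40 genes described here encode the scaffold of the sarcomere, the contractile unit of striated muscle: the Z-disc, titin, nebulin, the actin filament and its ends, the M-band and the proteins that tie these parts together. They were chosen by gene symbol, each read through the probe set with the highest mean over all 7 arrays, and 39 of the 40 could be read among 19938 genes measured. The exception was Capn3, the titin-bound protease calpain-3, whose only probe set is also assigned to Ganc, so no value is given for it. RNA came from the extensor digitorum longus, a fast-twitch hindlimb muscle of the mouse, with 1 single-colour array per sample. There were 4 wild type arrays and 3 from mice labelled AMPKα1α2 double knockout, which lack the catalytic subunits of AMP-activated protein kinase (AMPK), an energy sensor, and both groups share a background mixed from C57/Bl6 and SV129. The labels give no age, sex, exercise state, allele or promoter of the deletion, so it is unknown whether the loss is confined to muscle fibres. The title of the series concerns fatty acid use during exercise, and the question put to these genes is whether scaffold transcripts differ between the genotypes.

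In the sarcomere, actin filaments are anchored by their barbed ends in the Z-disc, where alpha-actinin cross-links them, while myosin filaments are held in register at the M-band by myomesins. Titin spans from Z-disc to M-band and acts as a spring and a ruler for assembly, and nebulin runs along the actin filament. Several Z-disc, titin and M-band proteins exist as fast, slow, cardiac or developmental forms, and some are known to respond to stretch, injury or a change of fibre type.

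The arrays were alike in overall level, with medians from 7.501 to 7.584 on the log2 scale. Prkaa1, which encodes the α1 subunit, differed by -0.51 ± 0.09 (moderated SE) and Prkaa2, which encodes α2, by -0.21 ± 0.07. Their adjusted p in limma was 0.12 and 0.39. The deleted exons are not stated, so these probe sets may lie outside them, and genotypes were taken from the labels. All 8 fast fibre markers lay at or above the 99.7th percentile of mean level over all genes. The knockout arrays also differed from wild type in markers of other states and cells, and the part of these in the results below was not tested. The mean log2 level of the 6 regenerating fibre markers was 8.20 to 8.26 in wild type and 8.61 to 8.77 in knockout arrays. That of the 8 macrophage markers was 8.17 to 8.46 against 8.90 to 9.02, and that of the 6 endothelial markers 9.61 to 9.76 against 9.27 to 9.46. The 12 immediate early genes averaged 10.50 in knockout replicate 2 and 8.30 to 8.70 in the other arrays.

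Most scaffold transcripts read nearly the same in both genotypes, and the members that differed most had higher means in knockout muscle, though none was called. Of the 39 members 22 differed by less than 0.1 log2 units, 11 by 0.1 to 0.3 and 6 by more than 0.3. Those 6 were all above wild type: Mybph at 1.91, Actc1 at 0.82, Lmod2 at 0.65, Myom3 at 0.61, Klhl40 at 0.56 and Myoz2 at 0.37. The median difference was 0.04 over the members and -0.005 over all genes, and 26 members lay above wild type and 13 below.

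No member was called. With limma and Benjamini-Hochberg adjustment 0 of 39 had an adjusted p under 0.05, where 0.0201% of all genes were called higher and 0.00502% lower, and the smallest adjusted p among members was 0.11, for Mybph. At an unadjusted p under 0.05, 8 members were higher (20.5% of the members, against 3.93% of all genes) and 2 were lower (5.13%, against 6.69%). Without any overlap between the genotypes, 8 members were higher, against 3.29% of all genes, and 3 were lower, against 5.33%. Members are bright on these arrays, and among the 7740 genes with a mean of at least 8.22, the level of the dimmest member, 5.98% were higher and 14.3% lower at the unadjusted threshold. At that threshold the share of members higher lay above both backgrounds and the share lower below both. By overlap the share lower, 7.69%, lay above that of all genes and below the 11.5% of the brighter genes. These shares describe the list, which was chosen with earlier results of these data known and was not tested as a whole.

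**Figure D1:**
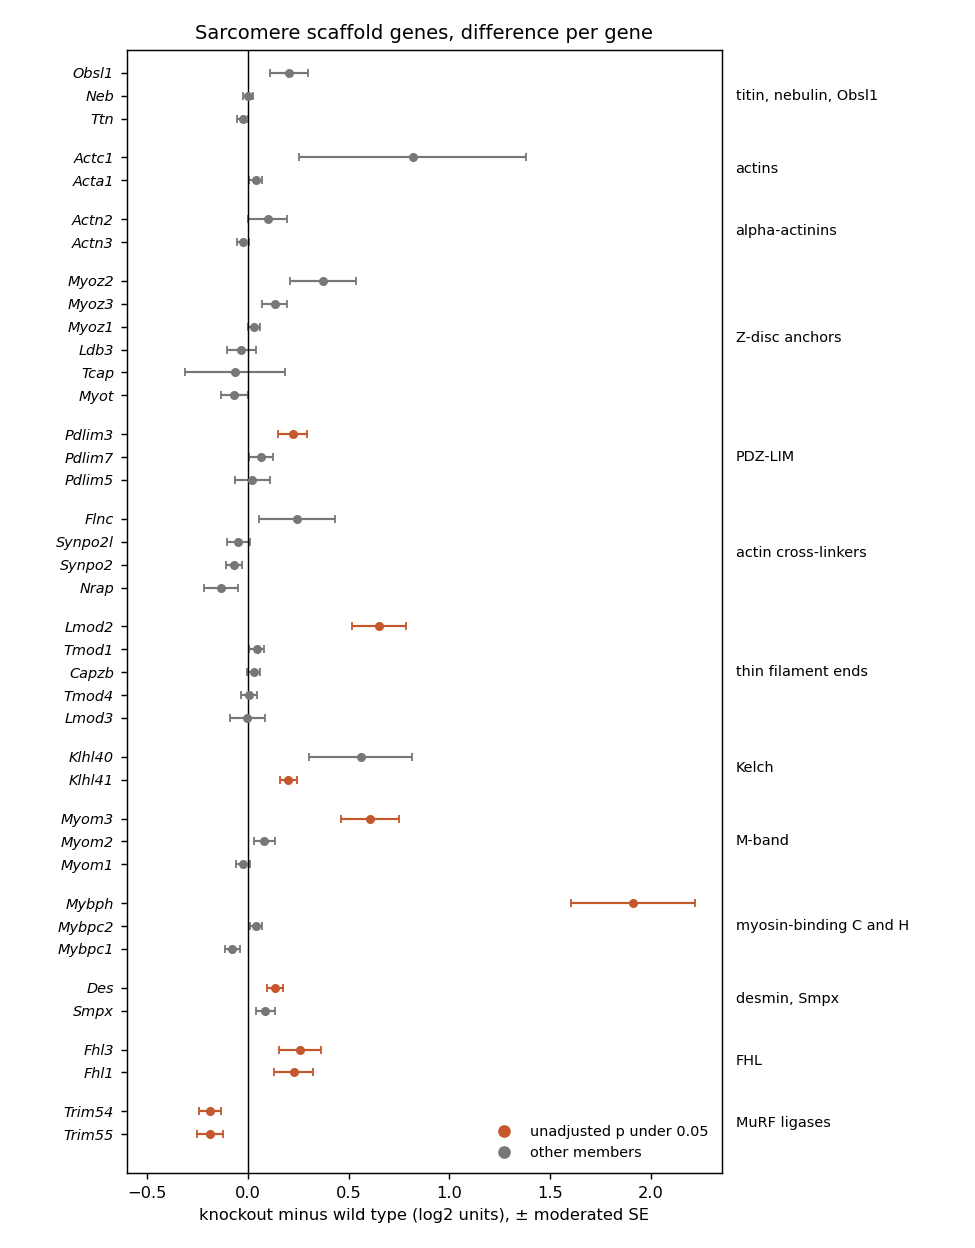
Difference between knockout and wild type in log2 units for each of the 39 members, grouped by role, with points at the difference and bars of 1 moderated SE; orange marks an unadjusted p under 0.05. Mybph stands apart at 1.91, the 2 MuRF ligase genes are the orange points below 0, and titin, nebulin and skeletal actin sit at 0.

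The thick filament held the member that differed most. Mybph encodes myosin-binding protein H, a relative of myosin-binding protein C built of immunoglobulin and fibronectin domains. It read 9.12, 9.81, 8.60 and 8.91 in wild type replicates 1 to 4 and 10.56, 11.22 and 11.30 in knockout replicates 1 to 3. The lowest knockout array therefore lay 0.75 above the highest wild type array, wild type replicate 2. Its means were 9.11 ± 0.51 (SD, n = 4) and 11.02 ± 0.41 (SD, n = 3), a difference of 1.91 ± 0.31 (SE) or 3.76-fold. The 95% interval of the difference ran from 1.19 to 2.64, and the adjusted p in limma was 0.11. The value stayed between 1.74 and 2.15 when any single array was left out.

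The forms of myosin-binding protein C named slow and fast showed no such difference. Mybpc1, known as the slow form, read 13.04, 12.97, 13.10 and 12.99 in wild type, against 12.96, 12.94 and 12.95 in knockout arrays. Its mean lay at the 99.6th percentile of all genes, while the 8 slow fibre markers averaged 8.30 to 8.47 in wild type. Neither Mybpc1 nor its ratio to Mybpc2 is therefore read as a measure of fibre type. The knockout arrays were all lower, by a margin of 0.01 between the nearest arrays of the groups, and the difference was -0.08 ± 0.04. Mybpc2, the fast form, read 13.44, 13.43, 13.42 and 13.39 against 13.44, 13.50 and 13.45, a difference of 0.04 ± 0.03. The knockout arrays again stood on one side, here the upper one, by less than 0.01. Within each array the log2 ratio of Mybpc1 to Mybpc2 was lower in the knockout by 0.12, with knockout values of -0.09, -0.17 and -0.10 relative to the wild type mean and wild type values from -0.06 to 0.08.

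At the M-band, where myomesins bridge neighbouring myosin filaments, the 3 myomesin genes differed from each other. Myom3 read 8.82, 9.37, 8.95 and 8.96 in wild type, against 9.47, 9.59 and 9.84 in knockout arrays. Each knockout value was above each wild type value, with wild type replicate 2 the nearest, and the difference was 0.61 ± 0.15 or 1.52-fold (adjusted p = 0.23 in limma). Myom2, the myomesin typical of fast fibres, differed by 0.08 ± 0.05, and by 0.13 without knockout replicate 1 or 0.05 without replicate 3. Myom1, the general form, differed by -0.02 ± 0.04, with a 95% interval from -0.11 to 0.06, although after quantile normalization its sign turned to a value under 0.001 in size. Obsl1, whose product links titin to myomesin, read 9.21, 9.37, 9.22 and 9.35 in wild type, against 9.35, 9.41 and 9.71 in knockout muscle. The high value came from knockout replicate 3, and the difference of 0.21 ± 0.09 was 0.10 without that array.

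Of the giant filament proteins, titin and nebulin transcripts were level. Ttn ranged from 13.72 to 13.77 in wild type and from 13.70 to 13.73 in knockout arrays, a difference of -0.02 ± 0.03 with a 95% interval from -0.09 to 0.04. Neb lay between 13.88 and 13.89 in all 7 arrays, and its difference was 0.003 ± 0.02, with a sign that turned under quantile normalization and median centring. Each of these genes is read by 1 probe set, which says nothing of splice forms.

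The skeletal actin gene Acta1, the main actin of adult fibres, ranged from 14.19 to 14.27 in wild type and from 14.23 to 14.29 in knockout arrays, a difference of 0.04 ± 0.03. The cardiac actin gene Actc1, which is also expressed in developing and regenerating skeletal muscle, varied more than any other member. It read 12.56, 13.22, 10.82 and 12.69 in wild type, against 12.55, 13.50 and 13.36 in knockout arrays. Wild type replicate 3 stood far below the rest and the groups overlapped widely. The difference of 0.82 ± 0.56 was 0.32 without that array and 1.12 without wild type replicate 2.

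Alpha-actinins, which cross-link actin filaments in the Z-disc, did not separate the genotypes. Actn3, the fast fibre form, read 13.79, 13.75, 13.78 and 13.82 in wild type, against 13.78, 13.78 and 13.73 in knockout arrays. Actn2, present in all fibres and in heart, read 12.83, 13.11, 13.08 and 12.86 against 12.92, 13.10 and 13.18. Groups overlapped for both, with differences of -0.02 ± 0.03 for Actn3 and 0.10 ± 0.10 for Actn2. Leaving out knockout replicate 3 or 1 moved the value of Actn2 to 0.04 or 0.17.

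Myozenins (calsarcins) bind alpha-actinin and the phosphatase calcineurin at the Z-disc. Myoz2, the slow and cardiac form, read 10.67, 11.20, 11.36 and 10.99 in wild type, against 11.26, 11.51 and 11.51 in knockout arrays. Knockout replicate 1 lay inside the wild type range, and the difference was 0.37 ± 0.16, or 0.24 without wild type replicate 1, the lowest array. Myoz1, a fast form, read 13.45, 13.38, 13.45 and 13.44 in wild type, against 13.47, 13.44 and 13.46 in knockout muscle, a difference of 0.03 ± 0.03. The within-array log2 ratio of Myoz2 to Myoz1 was 0.34 higher in the knockout, with knockout values of 0.16, 0.44 and 0.42 relative to the wild type mean and wild type values from -0.41 to 0.28, so the groups overlapped. Myoz3, the other fast form, differed by 0.13 ± 0.06, and by 0.08 without knockout replicate 2.

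The 8 slow fibre markers had a mean log2 level of 8.30 to 8.47 in wild type. In knockout replicates 1 to 3 it was 8.85, 8.48 and 9.11. Knockout replicate 2 was thus nearest to wild type for these markers, whereas for Myoz2, at 11.26, 11.51 and 11.51, it was replicate 1. Of the 8 markers 7 lay above wild type, against 9303 of all 19938 genes. At an unadjusted p under 0.05 in limma 5 were higher, against 3.93% of all genes. Of the 2 scaffold genes listed as slow-type, Myoz2 was above wild type and Mybpc1, bright in this fast muscle, below. Of the 4 listed as fast-type (Actn3, Mybpc2, Myoz1 and Myoz3) 3 were above and 1 below. The myomesins were on neither list, with differences of 0.08 for Myom2, 0.61 for Myom3 and -0.02 for Myom1. The part of fibre type in the values of these members was not tested.

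Other Z-disc anchors were close to wild type. Myot (myotilin), which binds alpha-actinin and filamin, differed by -0.07 ± 0.07, and by values from -0.11 without wild type replicate 1 to -0.0065 without knockout replicate 1. Ldb3 (Cypher or ZASP), a PDZ-LIM protein, differed by -0.03 ± 0.07. Tcap, the telethonin that caps the Z-disc end of titin, read 11.90, 10.93, 12.01 and 11.65 in wild type, against 11.69, 11.47 and 11.51 in knockout arrays. Wild type replicate 2 was low for this gene, and its difference of -0.06 ± 0.25 became -0.29 without that array, where it passed an unadjusted p under 0.05, and 0.07 without wild type replicate 3. The 95% interval for Tcap, from -0.65 to 0.53, leaves room for a change in either direction.

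Of the PDZ-LIM genes, whose products tether signalling proteins to alpha-actinin, Pdlim3 (ALP) was higher in knockout muscle. It read 12.84, 13.01, 12.97 and 12.96 in wild type, against 13.02, 13.28 and 13.20 in knockout arrays. Knockout replicate 1 passed wild type replicate 2 by 0.003 and the other knockout arrays by more. The difference was 0.22 ± 0.07 or 1.17-fold (adjusted p = 0.36 in limma). Pdlim7 (Enigma) differed by 0.07 ± 0.06, and by 0.014 without knockout replicate 2, 0.029 without wild type replicate 3 and 0.10 without knockout replicate 1. Pdlim5 (ENH) differed by 0.02 ± 0.09, with a sign that turned when wild type replicate 1 or knockout replicate 2 was left out.

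Among proteins that bind and cross-link actin at the Z-disc and at the fibre end, none reached an unadjusted p under 0.05 in the fit over all arrays without a block. Flnc, the muscle filamin C, read 12.05, 12.73, 12.51 and 12.26 in wild type, against 12.35, 12.92 and 12.63 in knockout arrays. Its highest array was knockout replicate 2, and the difference of 0.24 ± 0.19 was 0.10 without it and 0.39 without knockout replicate 1. With the replicate number as a block, at 0.20, Flnc passed the unadjusted threshold. Nrap, an anchoring protein of myofibril assembly and of the myotendinous junction, was listed at 12.37 in 5 arrays, at 12.62 in wild type replicate 3 and at 12.16 in knockout replicate 1. Its difference of -0.13 ± 0.08 thus came from 2 arrays, and was -0.06 without knockout replicate 1 and -0.07 without wild type replicate 3. Synpo2 (myopodin), an actin-bundling Z-disc protein, differed by -0.07 ± 0.04 and its relative Synpo2l by -0.05 ± 0.06, the latter with a turned sign without knockout replicate 2.

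At the pointed end of the actin filament, tropomodulins cap the filament and leiomodins promote its nucleation and growth. Lmod2, a leiomodin best known from heart, read 10.05, 9.997, 10.24 and 9.98 in wild type, against 10.41, 10.99 and 10.75 in knockout arrays. The nearest arrays of the groups were 0.17 apart, and knockout replicate 2 was the highest. Means were 10.07 ± 0.12 (SD, n = 4) and 10.72 ± 0.29 (SD, n = 3), a difference of 0.65 ± 0.14 (SE) or 1.57-fold. Its adjusted p in limma was 0.16. Lmod3, the leiomodin of skeletal muscle, ranged from 10.90 to 11.19 in wild type and from 10.95 to 11.21 in knockout arrays, and its difference lay at 0.00 ± 0.09 with an unstable sign. Tmod4, the tropomodulin of skeletal muscle, differed by 0.01 ± 0.04 with an unstable sign, and Tmod1 by 0.04 ± 0.04. Capzb, the capping protein of the barbed end, differed by 0.03 ± 0.03.

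Kelch proteins Klhl40 and Klhl41 stabilise nebulin and leiomodin 3 and are mutated in nemaline myopathy. Klhl41 read 12.70, 12.63, 12.69 and 12.57 in wild type, against 12.82, 12.88 and 12.85 in knockout arrays. The 3 knockout values were close to each other and 0.12 above the nearest wild type array. Its difference was 0.20 ± 0.04 or 1.15-fold, with a 95% interval from 0.10 to 0.30 and an adjusted p of 0.16 in limma. Klhl40 read 10.01, 10.77, 10.29 and 10.31 in wild type, against 10.48, 11.43 and 10.80 in knockout arrays. There the groups overlapped, and the difference of 0.56 ± 0.26 was 0.30 when knockout replicate 2 was left out and 0.77 when replicate 1 was.

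Desmin, the intermediate filament that ties Z-discs to each other and to the membrane, was slightly higher. Des read 13.36, 13.28, 13.41 and 13.38 in wild type, against 13.48, 13.47 and 13.53 in knockout arrays. The groups were separated by 0.06, and the difference was 0.14 ± 0.04 or 1.10-fold (adjusted p = 0.31 in limma). Desmin is also made by vascular smooth muscle. The 6 smooth muscle and pericyte markers had a mean log2 level of 9.399 to 9.595 in wild type and 9.18 to 9.38 in knockout arrays. Of these 2, Myh11 and Rgs5, were lower without overlap, against 5.33% of all genes. Acta2, Cnn1, Tagln and Pdgfrb overlapped, the last with a difference of -0.015 ± 0.06. The part of smooth muscle in the value of Des was not tested. Smpx, a small stretch-responsive protein of the costamere region, differed by 0.09 ± 0.05, or by 0.04 without knockout replicate 3 and 0.13 without replicate 2.

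Both four-and-a-half LIM domain genes lay above wild type. Fhl1, the main form of skeletal muscle, read 13.35, 13.51, 13.51 and 13.13 in wild type, against 13.53, 13.63 and 13.65 in knockout arrays. The separation between the groups was 0.02, and the difference of 0.23 ± 0.10 was 0.15 without wild type replicate 4, its lowest array. Fhl3 read 11.70, 12.11, 11.98 and 11.99 in wild type, against 12.34, 12.18 and 12.09 in knockout arrays, so knockout replicate 3 lay below wild type replicate 2. Its difference was 0.26 ± 0.10, and the adjusted p in limma was 0.46 for Fhl3 and 0.47 for Fhl1.

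The ubiquitin ligases Trim54 (MuRF3) and Trim55 (MuRF2), RING-finger proteins that associate with titin and microtubules, were lower. Trim54 read 10.81, 10.81, 10.77 and 10.69 in wild type, against 10.69, 10.54 and 10.52 in knockout arrays. Trim55 read 10.42, 10.24, 10.32 and 10.26 in wild type, against 10.23, 10.10 and 10.03 in knockout arrays. In both, knockout replicates 2 and 3 were clearly below wild type, while knockout replicate 1 lay under the lowest wild type array by 0.001 for Trim54 and 0.007 for Trim55. The differences were -0.19 ± 0.05 and -0.19 ± 0.06, each 1.14-fold, with adjusted p of 0.31 and 0.39 in limma. These genes and Mybpc1 were the 3 members lower without overlap, and after median centring of the arrays 0 were. The related atrophy ligase Trim63 (MuRF1), named after its values were seen, differed by 0.37 ± 0.31 and was high in knockout replicate 2 alone, at 11.47 against 10.02 to 10.55 in the other arrays.

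**Figure D2:**
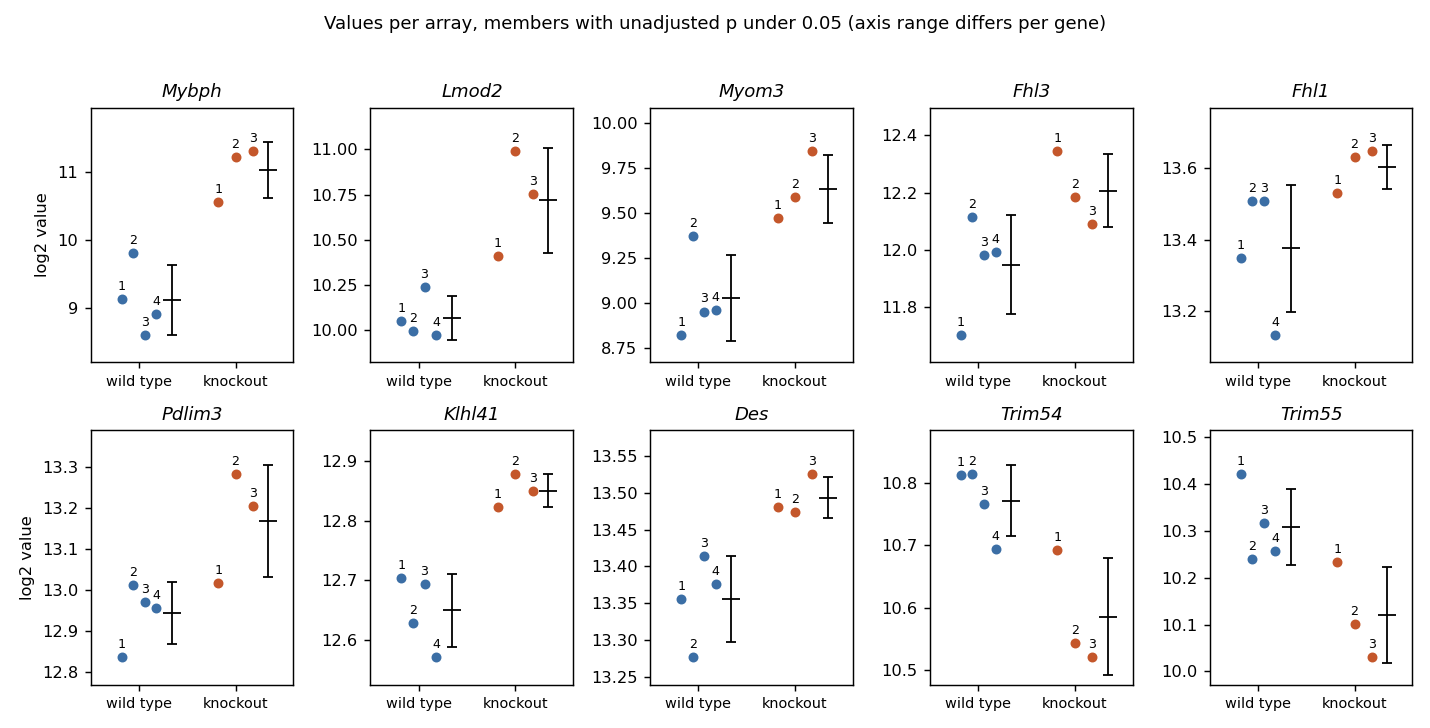
Log2 values in each array of the 10 members with an unadjusted p under 0.05, wild type in blue and knockout in orange, with replicate numbers beside the points and black bars for mean ± SD; the vertical range differs between panels. The groups are 0.75 apart for Mybph, overlap for Fhl3, and almost touch for Trim54 at 10.69.

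Promoter sequence is shown for the 5 members with the smallest p, 4 higher and 1 lower, so that the letters near their starts can be set beside the values above. The RefSeq table of GRCm38.p6 held promoters for 30 of the 39 measured members. In the 250 bases before each start 4 muscle-related motifs were searched on both strands: the E-box CAGCTG, which myogenic factors can bind, the core TATAAA of the TATA box, the CArG box of serum response factor and the MEF2 box. Printed are the 150 bases before the start, on the plus strand, with motif matches in capitals.
Mybph, chr1:134193298-134193447: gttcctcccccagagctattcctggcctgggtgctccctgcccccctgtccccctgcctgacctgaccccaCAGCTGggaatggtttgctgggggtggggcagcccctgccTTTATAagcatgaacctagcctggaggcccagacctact
Klhl41, chr2:69669970-69670119: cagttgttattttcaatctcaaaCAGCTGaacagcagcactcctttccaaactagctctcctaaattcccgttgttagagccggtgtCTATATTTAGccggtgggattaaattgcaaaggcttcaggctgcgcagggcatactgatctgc
Lmod2, chr6:24597621-24597770: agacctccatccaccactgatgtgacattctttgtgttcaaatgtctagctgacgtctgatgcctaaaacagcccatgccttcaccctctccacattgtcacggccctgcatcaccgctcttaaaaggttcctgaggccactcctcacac
Myom3, chr4:135759565-135759714: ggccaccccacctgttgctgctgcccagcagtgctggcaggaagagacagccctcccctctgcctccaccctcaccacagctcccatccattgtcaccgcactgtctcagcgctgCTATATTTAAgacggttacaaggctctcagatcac
Trim54, chr5:31116462-31116611: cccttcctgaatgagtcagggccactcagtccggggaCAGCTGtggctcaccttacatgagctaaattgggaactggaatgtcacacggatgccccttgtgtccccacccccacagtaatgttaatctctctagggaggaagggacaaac

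The E-box lay between -79 and -74 in Mybph, between -127 and -122 in Klhl41 and between -113 and -108 in Trim54, counted back from the start. It was thus present in genes that were higher and in one that was lower. A MEF2 box lay between -63 and -54 in Klhl41 and between -35 and -26 in Myom3, and Lmod2 held none of the 4 motifs in this window. Over the 30 member genes, with 35 promoters, 12 had the E-box, 6 the MEF2 box, 5 the CArG box and 5 the TATA core. A gene counted if any of its promoters held the match, while the share given next is per promoter. The capitals TTTATA in Mybph are the TATA core on the minus strand, between -39 and -34. Of the TATA matches only that of Acta1 was on the strand of the gene. The share of all 32851 promoters with each was 13% for the E-box, 2.92% for the MEF2 box, 1.47% for the CArG box and 12.4% for the TATA core. The CArG box was found in both actin genes, Acta1 and Actc1, between -73 and -64 and between -47 and -38. A match is a description of letters and not evidence of binding, and MEF2 matches can overlap other motifs.

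The arrays did not share the higher values evenly. Among the 12 members more than 0.2 above wild type, knockout replicate 1 was the lowest knockout array for 11, and replicate 2 the highest for 7. On the wild type side replicate 2 was the highest array for 9 of the 12 and replicate 1 the lowest for 7. Knockout replicate 2 is also the array with high immediate early genes, and without it 5 of the 8 higher members still passed an unadjusted p under 0.05, Pdlim3, Fhl1 and Fhl3 did not, and Smpx did in addition. Trim55, at -0.18, no longer passed either. Mybph, Lmod2, Myom3, Klhl41, Des and Trim54 passed that threshold whichever single array was left out. Of these Des did not pass after quantile normalization, while the other 5 passed in every alternative run. Fhl1 and Fhl3 did not pass after median centring, nor Fhl3 with the replicate block.

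**Figure D3:**
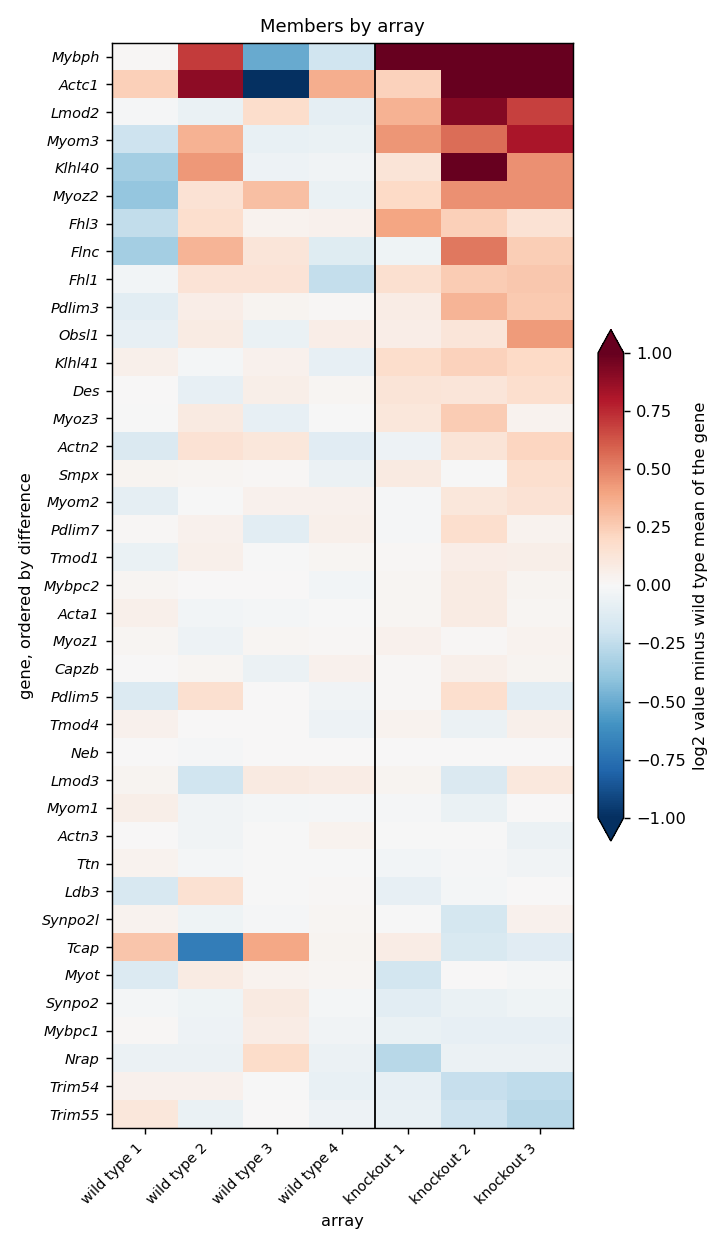
Heat map of the 39 members in each of the 7 arrays, ordered by difference, with colour for the log2 value minus the wild type mean of the gene and the scale capped at 1 unit either way. Mybph is red in every knockout array, Actc1 is low in wild type replicate 3 and Tcap in wild type replicate 2, and the middle of the map is nearly white.

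The differences were also read by signal level. The 12 members with a mean above 13 had differences of at most 0.23 in size and a median size of 0.04, and the 27 dimmer members a median size of 0.13. Over all genes the median size was 0.057 for the 81 genes above 13 and 0.048 for the rest. The highest value on any array was 14.65, and whether probe sets near that level have room to register a rise was not tested.

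Further genes of the Z-disc, the I-band, the filament ends and the M-band that are no members were read as a list, of which 50 were measured. With limma 0 of 50 had an adjusted p under 0.05. At an unadjusted p under 0.05 there were 9 higher (18%, against 3.93% of all genes) and 6 lower (12%, against 6.69% of all genes). Among the brighter genes described above the shares were 5.98% higher and 14.3% lower. That background is not matched to this list, which also holds dimmer genes, such as Nebl with a mean of 7.22. The median difference was 0.05. The 4 higher genes of smallest p were Palld, Hspb7, Wdr1 and Csrp3. Palladin (Palld), an actin-bundling Z-disc protein, read 10.81 to 11.03 in wild type and 11.19 to 11.21 in knockout arrays, a difference of 0.29 ± 0.05. Hspb7, a small heat shock protein that binds filamin C, read 10.74 to 11.32 against 11.73 to 11.75, a difference of 0.68 ± 0.13. Wdr1, a cofactor of actin disassembly, differed by 0.26 ± 0.07. Csrp3, the muscle LIM protein of the Z-disc, read 9.40, 11.19, 10.57 and 9.83 in wild type, against 11.55, 11.88 and 11.80 in knockout arrays, a difference of 1.499 ± 0.40 or 2.83-fold. As in Mybph and Myom3, wild type replicate 2 was the nearest to the knockout.

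The lower ones were Fhod3, a formin that elongates actin, at -0.22 ± 0.06, Sorbs2, a Z-disc adaptor, at -0.33 ± 0.09, Cmya5 (myospryn), a desmin and alpha-actinin partner, at -0.10 ± 0.03, and Lrrc39 (myomasp), an M-band protein, at -0.13 ± 0.05. Groups did not overlap for any of these 8 genes, which were picked by smallest p. In the list of 50, 6 were higher without overlap (12%, against 3.29% of all genes) and 4 lower (8%, against 5.33%). Among the brighter genes described above, these shares were 5.19% higher and 11.5% lower. Adjusted p in limma ran from 0.13 for Palld to 0.41 for Lrrc39.

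**Figure D4:**
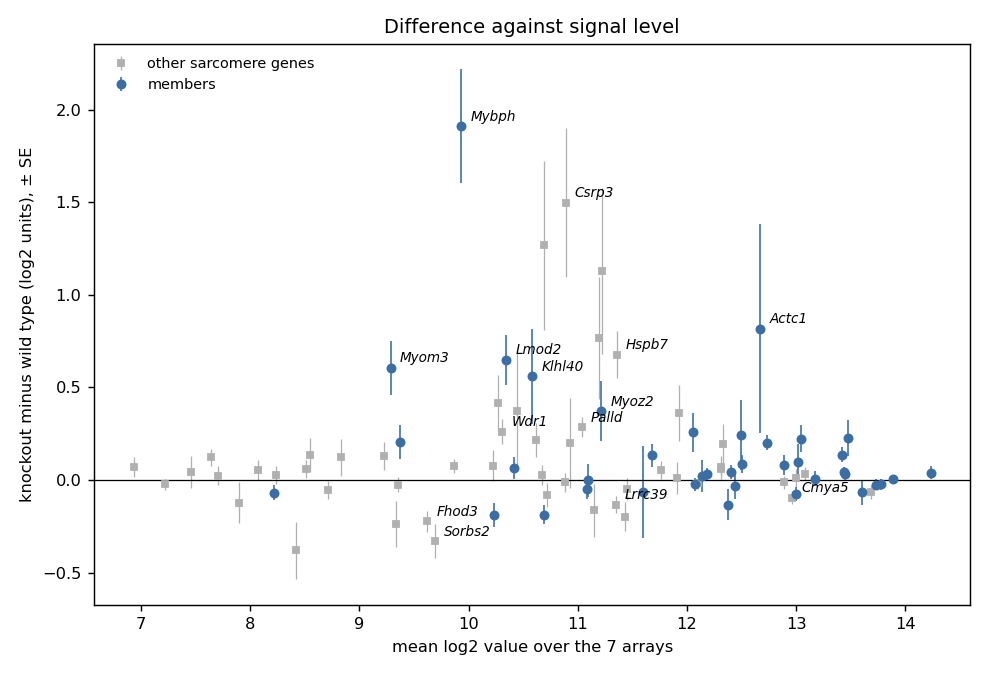
Difference between knockout and wild type against mean log2 value over the 7 arrays, for the 39 members (blue circles) and 50 other sarcomere genes (grey squares), with bars of 1 moderated SE. Points to the right of 13 lie within 0.23 of 0, and the highest are Mybph at 1.91 and Csrp3 at 1.499.

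Scaffold genes tied to early or regenerating muscle were not uniform. Of the 3 listed as such, Mybph and Actc1 lay above wild type and Nrap below. The regenerating fibre markers were above wild type in 6 of 6 cases, against 9303 of all 19938 genes, and 1, Myh3, was called in limma. Of the 6, 4 were higher without overlap, against 3.29% of all genes, while Myog and Chrng overlapped. The mean level of these markers did not overlap between the groups, while the values of Actc1 did. The 5 satellite cell markers averaged 8.41 to 8.45 in wild type and 8.49 to 8.61 in knockout arrays, but differed from each other. Vcam1 was higher without overlap at 0.30 ± 0.11 and Cdh15 lower without overlap at -0.09 ± 0.03. Pax7, Myf5 and Myod1 overlapped, with differences of 0.04, 0.05 and 0.20. Since Lmod2 and Actc1 are heart genes too, the 4 cardiac markers were read, and they averaged 8.003 to 8.065 against 8.09 to 8.21. Tnnt2 differed by 0.28 ± 0.07 without overlap. Myh6, Nppa and Myl7 overlapped, with differences of 0.05, 0.10 and 0.03. In bulk muscle a difference in fibre or cell content and a difference in RNA per fibre cannot be told apart.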

How the data were processed

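The deposited table holds log2 expression of 28856 probe sets on 7 arrays. Per the labels' protocols 100 ng of total RNA was labelled with the Ambion WT Expression Kit. Background correction, scaling and summarization are not stated, the log base was inferred from the range (4.41 to 14.65), and 59.1% of tested probe sets hold exactly equal values in at least 1 pair of arrays. The 21789 probe sets with 1 symbol in the platform annotation were fitted with limma 3.58.1 in R 4.3.3 (lmFit, eBayes, knockout minus wild type over all 7 arrays, no covariate) and adjusted by Benjamini-Hochberg, and the fit was tested on simulated data. Calls are at an adjusted p under 0.05. Values after ± are moderated SE unless marked SD, and the number of arrays limits precision. Whether arrays are single animals rests on the design text, which counts mice. Members and lists were chosen with earlier results of these data known. All members are named, with the 4 higher and 4 lower other sarcomere genes of smallest p.
Each fit was repeated with arrays weighted, quantile-normalized or centred on their medians, with a replicate block, with another variance prior (trended, robust), over other sets of probe sets (none filtered by symbol, bright ones alone, averages per gene), and without 1 array at a time. Probe sets with several symbols (1621) or none (5446) were not named.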

Additional observations from a re-analysis of the deposited data

Results flagged for a closer look

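In 3 of the 39 members 1 wild type array stood apart from the other 3 by more than Dixon's 95% limit for the gap over the group's range, which chance gives in about 1 of 20 groups. Myoz1 was low in wild type replicate 2, at 13.38 against 13.44 to 13.45, with a gap of 0.881 of the range. Nrap was high in wild type replicate 3, at 12.62 where the other arrays shared the value 12.37, so the gap is 1 times the range. Synpo2 was high in the same array, at 8.33 against 8.20 to 8.22, with a gap of 0.842.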

How the results depend on the processing

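Over 15 alternatives, no member was called at an adjusted p under 0.05, and 562 of 585 member values kept their sign. In the fit over all arrays 0 members had an adjusted p under 0.10. The 10 members with an unadjusted p under 0.05 in the fit over all arrays kept their sign throughout, and the lowest adjusted p was 0.070 (Mybph, dim probe sets left out). The count without overlap and lower was 0 after median centring, 5 after quantile normalization and 3 to 6 when 1 array was left out. The count higher was 6 after quantile normalization and 8 to 14 when 1 array was left out. Leaving out an array cannot lower either count, so these ranges were bound not to fall below the counts over all arrays. Lower members at an unadjusted p under 0.05 numbered 1 without knockout replicate 2 or 3 and 4 without wild type replicate 2. The median difference was 0.0553 with array weights, 0.0256 after median centring and 0.0395 to 0.0618 with 1 array left out. Median centring moves the difference of every gene by the same amount, and the median over all genes went from -0.005 to -0.022. The cause of the other shifts was not tested. With the replicate number as a block (replicate block), the unadjusted threshold was passed by 11 higher members and 2 lower ones. Shares of all genes past the same rules were not computed for the alternatives, so these counts have no background. Same-numbered arrays did not deviate together in every case (r across genes 0.29, 0.16 and -0.20 for numbers 1 to 3), and knockout replicate 3 went best with wild type replicate 4.

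The 23 turned signs fell on 8 members of small difference. Neb was -0.015 after quantile normalization and -0.014 after median centring, and ran from -7.85e-05 to 0.0051 with 1 array left out. Tmod4 was -0.0090 with the block, -0.025 after quantile normalization, -0.0087 after centring and -0.012 with array weights, and ran from -0.011 to 0.043. Lmod3 was 0.024 with the block and 0.0084 after quantile normalization, and ran from -0.067 to 0.069. Myom1 was 0.00096 after quantile normalization. With 1 array left out Ldb3 ran from -0.087 to 0.019, Tcap from -0.29 to 0.066, Pdlim5 from -0.049 to 0.088 and Synpo2l from -0.092 to 0.020.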
